A study of Homo sapiens with 9 samples.

Results

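Keratin-associated proteins are small proteins of the hair shaft that fill the space between the hair keratin filaments and cross-link them. One kind is rich in cysteine and binds keratins through disulfide bonds, and another kind is rich in glycine and tyrosine. Their genes (symbols beginning KRTAP) are short, lie in clusters and are used late in hair shaft formation, in cells of the hair follicle. H3K9me3, trimethylation of lysine 9 of histone H3, marks compact chromatin that is generally silent, and much of that chromatin lies against the nuclear lamina, the meshwork of lamins under the nuclear envelope. The genes described here are the protein-coding genes of chromosome 21 whose symbol begins KRTAP in an annotation of GRCh38. There are 49 of them, of 20037 protein-coding genes in all.

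H3K9me3 was profiled by Cut&Run, in which a nuclease tethered to the antibody releases the marked DNA for sequencing, in hTERT RPE-1 cells. These are an established human line of retinal pigment epithelium, immortalised with telomerase, and not a hair-forming cell type. The profiled cells stably overexpressed either lamin B1 fused to mCherry (LmnB1) or mCherry alone, and both kinds received 0.05 ug/mL doxycycline for 24 hours. Each construct had 2 clonal lines, LmnB1_16 and LmnB1_6 for LmnB1 and mCherry_3 and mCherry_4 for mCherry, with 2 biological replicates per clone, so that 4 LmnB1 libraries were set against 4 mCherry libraries. The 9 samples of the series also include 1 input from untreated wild-type cells. No expression values were measured here, so neither the cell type nor the activity of the KRTAP genes could be checked against RNA.

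Each library has 1 list of enriched domains, and the 8 lists hold 60138 domains. Reads inside domains ranged from 4467294 to 10321442 in the LmnB1 libraries and from 2855378 to 6959349 in the mCherry libraries. The domains covered 357 to 646 Mb with LmnB1 and 320 to 529 Mb with mCherry. Domains under 15 kb made up 72.4%, 62.3%, 53.2% and 17.2% of the lists of LmnB1_16 replicates 1 and 2 and LmnB1_6 replicates 1 and 2, and 44.4%, 42.1%, 14.98% and 23.9% of those of mCherry_3 replicates 1 and 2 and mCherry_4 replicates 1 and 2. Short domains were thus fewest in LmnB1_6 replicate 2 and in both mCherry_4 libraries. Only domains above a log2 enrichment of about 0.6 over input are listed, so an unlisted gene may still carry some of the mark. All values below are the covered percent of a gene body, from its first to its last base, and library values follow the order of clones and replicates just given unless stated otherwise.

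The 49 genes form 2 clusters on the long arm. The proximal cluster, near 30 to 31 Mb, holds 33 genes of 208 to 1642 bp between KRTAP24-1 and KRTAP19-8 (chr21:30281309-31038476, a span of 757 kb, of which gene bodies fill 2.35%). It contains 11 cysteine-rich genes of 8 families (KRTAP24, 25, 26, 27, 23, 13, 15 and 11) and 22 glycine- and tyrosine-rich genes of 7 families (KRTAP19, 22, 6, 20, 21, 8 and 7). The distal cluster, near 44 Mb, holds 16 genes of 410 to 1643 bp between KRTAP10-1 and KRTAP10-12 (chr21:44538981-44698044, 159 kb, 10.4% of it gene bodies). All of these are cysteine-rich, of the KRTAP10 and KRTAP12 families. The whole distal cluster lies inside the bounds of another gene, TSPEAR (chr21:44497893-44711572), whose loss in humans is known to cause ectodermal dysplasia with hair and tooth defects.

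Promoter windows from RefSeq on GRCh38.p14, from 250 bases before to 50 bases after the gene start, were matched for 45 of the 49 genes, 30 proximal and 15 distal. The set printed here shows what the clusters' promoters have in common and where they differ. Each is written 5′ to 3′ on the gene's strand in lower case, with TATAAA, the core of the TATA box, in capitals on whichever strand it was found. KRTAP13-1 (chr21:30395781-30396080, plus strand) stands for the proximal genes covered in every library. KRTAP19-3 (chr21:30491964-30492263), KRTAP6-2 (chr21:30598853-30599152), KRTAP21-3 (chr21:30718728-30719027) and KRTAP7-1 (chr21:30829710-30830009), all on the minus strand, are the proximal promoters that held the edge of a domain in 1 library. The distal ones are KRTAP10-9 (chr21:44626843-44627142, plus strand), among the most often covered distal genes, and KRTAP10-2 (chr21:44551456-44551755, minus strand) and KRTAP10-10 (chr21:44637106-44637405, plus strand), the pair of distal promoters most alike in sequence, both outside every list.
KRTAP13-1: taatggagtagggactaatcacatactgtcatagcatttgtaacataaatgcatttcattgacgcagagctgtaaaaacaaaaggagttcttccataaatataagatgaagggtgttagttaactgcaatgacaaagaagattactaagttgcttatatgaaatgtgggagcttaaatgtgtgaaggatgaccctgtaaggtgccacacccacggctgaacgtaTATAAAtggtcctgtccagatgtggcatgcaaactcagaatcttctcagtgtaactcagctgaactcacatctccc
KRTAP19-3: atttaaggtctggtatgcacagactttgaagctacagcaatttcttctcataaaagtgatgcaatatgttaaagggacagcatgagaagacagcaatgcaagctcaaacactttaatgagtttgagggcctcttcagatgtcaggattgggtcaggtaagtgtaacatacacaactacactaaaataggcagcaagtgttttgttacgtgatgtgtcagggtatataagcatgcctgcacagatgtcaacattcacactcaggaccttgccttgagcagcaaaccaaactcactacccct
KRTAP6-2: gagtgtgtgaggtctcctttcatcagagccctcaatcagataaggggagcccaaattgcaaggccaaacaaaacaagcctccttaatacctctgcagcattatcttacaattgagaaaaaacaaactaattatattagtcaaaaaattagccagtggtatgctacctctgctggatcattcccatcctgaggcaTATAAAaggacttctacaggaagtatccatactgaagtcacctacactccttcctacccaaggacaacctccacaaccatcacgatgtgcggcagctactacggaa
KRTAP21-3: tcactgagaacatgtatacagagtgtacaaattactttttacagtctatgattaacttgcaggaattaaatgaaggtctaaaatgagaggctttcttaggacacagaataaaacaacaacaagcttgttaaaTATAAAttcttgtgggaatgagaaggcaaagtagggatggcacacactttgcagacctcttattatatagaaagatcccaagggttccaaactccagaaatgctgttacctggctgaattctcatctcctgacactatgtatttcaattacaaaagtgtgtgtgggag
KRTAP7-1: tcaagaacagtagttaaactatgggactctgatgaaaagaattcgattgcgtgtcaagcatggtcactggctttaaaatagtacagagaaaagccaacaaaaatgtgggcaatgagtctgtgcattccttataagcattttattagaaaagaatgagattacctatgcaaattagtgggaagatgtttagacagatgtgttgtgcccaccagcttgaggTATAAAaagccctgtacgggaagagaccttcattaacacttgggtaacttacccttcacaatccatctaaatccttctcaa
KRTAP10-9: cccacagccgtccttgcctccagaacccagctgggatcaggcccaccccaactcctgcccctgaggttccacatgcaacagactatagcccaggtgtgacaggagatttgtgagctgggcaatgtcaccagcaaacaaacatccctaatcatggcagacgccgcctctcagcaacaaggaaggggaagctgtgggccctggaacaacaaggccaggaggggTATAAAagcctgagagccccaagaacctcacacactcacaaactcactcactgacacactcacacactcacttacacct
KRTAP10-2: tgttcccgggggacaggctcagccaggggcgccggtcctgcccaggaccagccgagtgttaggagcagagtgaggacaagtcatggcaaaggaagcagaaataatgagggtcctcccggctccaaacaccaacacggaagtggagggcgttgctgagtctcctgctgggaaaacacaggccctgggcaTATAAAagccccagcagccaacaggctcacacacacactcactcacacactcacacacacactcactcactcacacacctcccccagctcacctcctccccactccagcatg
KRTAP10-10: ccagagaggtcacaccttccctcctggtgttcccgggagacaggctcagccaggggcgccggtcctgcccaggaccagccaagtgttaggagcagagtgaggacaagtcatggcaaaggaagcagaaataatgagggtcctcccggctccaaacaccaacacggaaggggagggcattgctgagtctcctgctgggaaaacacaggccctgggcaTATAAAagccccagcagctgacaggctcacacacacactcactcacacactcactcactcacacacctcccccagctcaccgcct

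Proximal promoters were poor in G and C, with a median of 38.5% (range 31.3% to 45.7%, n = 30). Distal promoters had a median of 55.3% (47.3% to 62.7%, n = 15), so the ranges of the clusters did not overlap. Promoters of other chromosome 21 protein-coding genes had a median of 66.3% (n = 212 promoters) and all protein-coding promoters one of 62.3% (n = 22199). The median number of CpG pairs per window was 2 in the proximal and 4 in the distal cluster, against 26 on the rest of the chromosome and 21 over all. TATAAA, searched on both strands, stood in 23 of 30 proximal windows (76.7%) and 11 of 15 distal ones (73.3%), as in the KRTAP13-1 and KRTAP10-9 windows above. It stood in 9.43% of the windows of other chromosome 21 genes and in 9.47% of all windows. Both clusters thus shared a TATAAA-rich, CpG-poor promoter and differed in base composition. A match is a description of the letters and not evidence of binding.

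Covered percent differed between the clusters in every library. Averaged over their genes, the 33 proximal genes reached 100%, 100%, 97.0% and 90.9% cover with LmnB1 and 100%, 100%, 93.9% and 96.9% with mCherry. The 16 distal genes reached 18.8%, 6.25%, 12.5% and 6.25% cover with LmnB1 and 12.5%, 53.0%, 0% and 0% with mCherry. The proximal mean exceeded the distal one by 83.7 ± 15.8 percentage points (SD, n = 8 libraries), with the smallest gap, 47.0 points, in mCherry_3 replicate 2 and the widest, 96.9 points, in mCherry_4 replicate 2. The direction was the same in 8 of 8 libraries. This is a description of neighbouring genes that share domains and libraries, and no test was made of it.

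**Figure D1:**
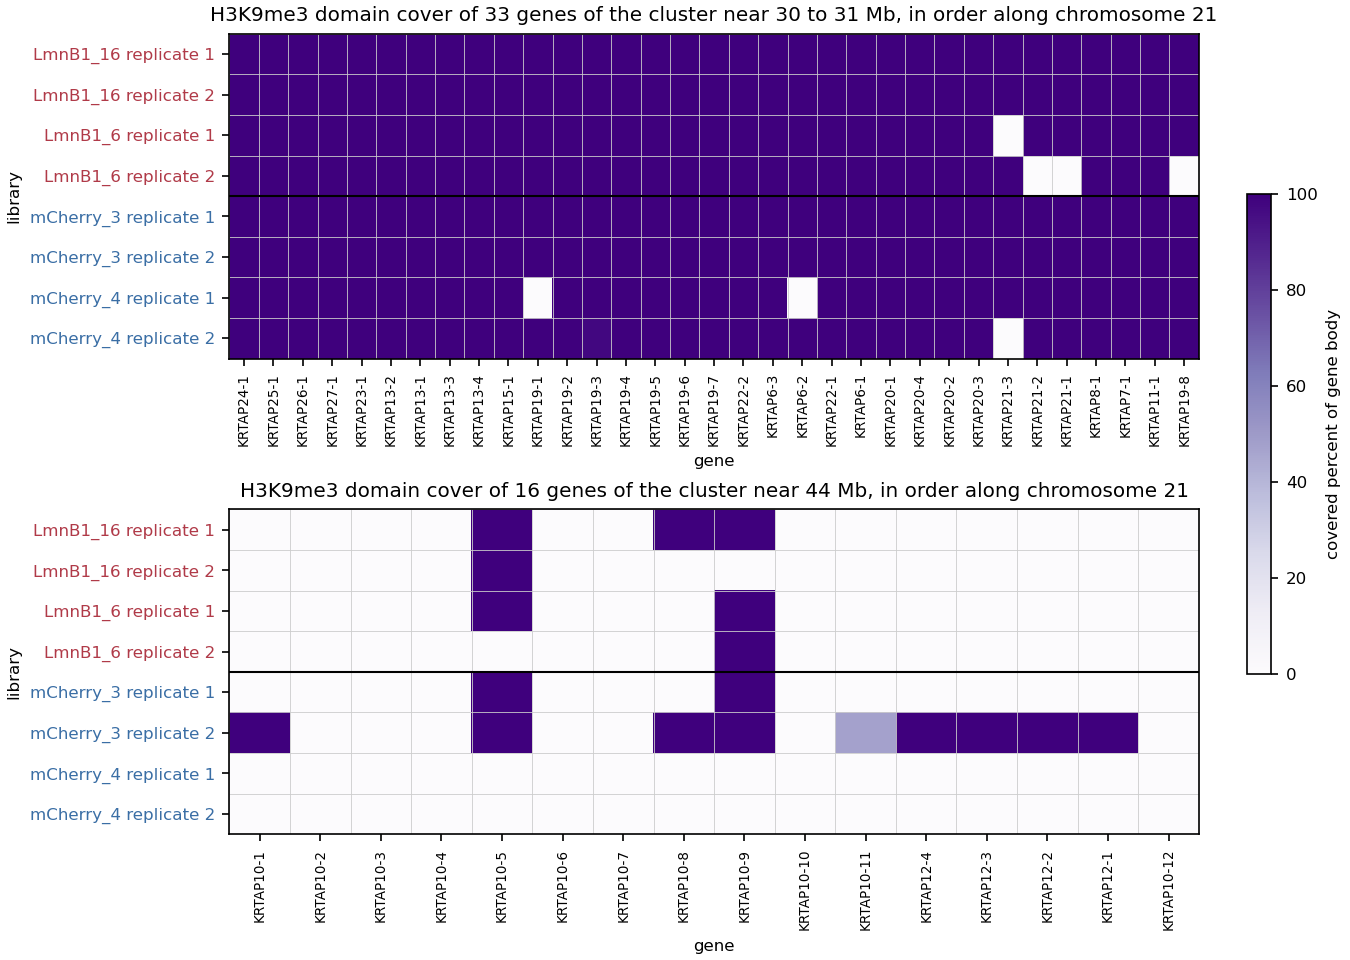
Covered percent of the gene body (colour, 0 white to 100 dark) for each of the 33 proximal genes (upper panel) and 16 distal genes (lower panel), in order along the chromosome, in the 4 LmnB1 libraries (above the line) and the 4 mCherry libraries (below it). Proximal genes are dark in nearly every library, whereas 7 distal genes are white in all 8.

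Of the 33 proximal genes, 26 lay wholly inside domains (100%) in all 8 libraries, and 27 (81.8%) had at least 50% of their body covered in each of the 8. Over all protein-coding genes that share was 1.82%, and over the other 190 protein-coding genes of chromosome 21 it was 2.63%, or 5 genes. Those 5 were SAMSN1, NCAM2, DSCAM and the neighbouring claudin genes CLDN17 and CLDN8, which encode tight junction proteins. Both types were among the constant genes. All 11 cysteine-rich genes, among them KRTAP24-1 at the proximal end, the 4 KRTAP13 genes and KRTAP11-1, stood at 100% in all 8 libraries, and so did 15 of the 22 glycine- and tyrosine-rich genes, of which 7 varied. No test of a difference between types was made. Most cysteine-rich genes lie together at the centromeric end of the cluster, from KRTAP24-1 to KRTAP15-1, so type and position go together here and cannot be told apart.

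The 7 proximal genes that varied each lost cover in 1 or 2 libraries. KRTAP19-1 stood at 100% in all 4 LmnB1 libraries and at 100%, 100%, 0% and 100% in the mCherry libraries. KRTAP6-2 gave the same values, its 0% again in mCherry_4 replicate 1. Both are glycine- and tyrosine-rich hair proteins, and for both a 4 kb gap between domains held the gene. KRTAP21-3 stood at 100%, 100%, 0% and 100% in the LmnB1 libraries and at 100%, 100%, 100% and 0% in the mCherry libraries. KRTAP21-2, KRTAP21-1 and KRTAP19-8 each stood at 100%, 100%, 100% and 0% in the LmnB1 libraries and at 100% in all 4 mCherry libraries. KRTAP19-3 had 100% everywhere but in mCherry_4 replicate 2, at 97.6%. For each of these genes the groups overlapped, and the libraries at 0% were LmnB1_6 and mCherry_4 ones only.

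The proximal genes did not have domains of their own. In LmnB1_16 replicates 1 and 2 a single domain of 1145 and 1141 kb held all 33, and in mCherry_3 replicates 1 and 2 a single domain of 1147 and 1157 kb did. The block was split into 3 domains in LmnB1_6 replicate 1, 6 in LmnB1_6 replicate 2, 10 in mCherry_4 replicate 1 and 13 in mCherry_4 replicate 2. Between these domains lay 28 gaps of 4 to 53 kb with a median of 4 kb. Of these, 6 overlapped a KRTAP gene, in the case of KRTAP19-3 only its edge. The longest, in LmnB1_6 replicate 2, held KRTAP21-2 and KRTAP21-1. Listed domains covered 100%, 100%, 96.3% and 86.9% of the cluster's span in the LmnB1 libraries and 100%, 100%, 94.8% and 93.9% in the mCherry libraries. Of the span, 561 kb (74.1%) was listed in all 8 libraries, and no base was listed in fewer than 6.

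**Figure D2:**
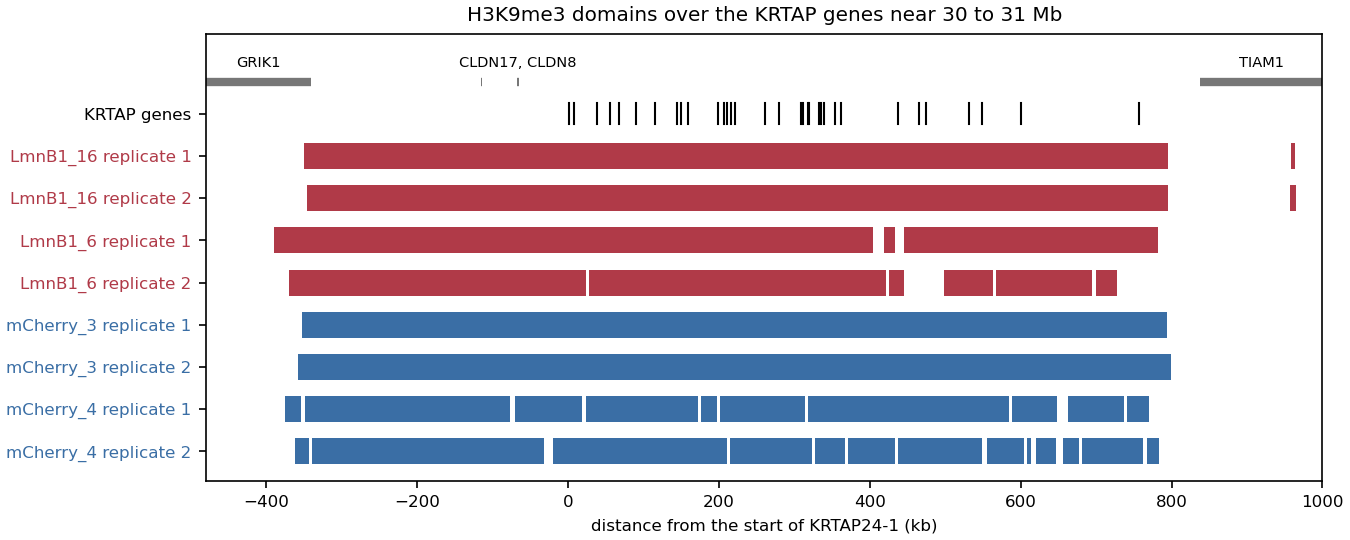
Listed H3K9me3 domains (bars) of the 4 LmnB1 libraries (red, above) and the 4 mCherry libraries (blue, below) against distance from the start of KRTAP24-1 in kb, with the 33 proximal KRTAP genes as ticks and neighbouring genes in grey. A block of about the same extent is seen in all 8 libraries, unbroken in LmnB1_16 and mCherry_3 and broken by gaps in LmnB1_6 and mCherry_4.

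The edges of the block recurred. Its left edge fell inside GRIK1, which encodes a kainate-type glutamate receptor subunit, in 8 of 8 libraries, 4.996 to 49.0 kb before the end of that gene and within a window of 44 kb. At the other side the block ended 42.4, 42.4, 55.4 and 109 kb before TIAM1, which encodes an exchange factor for Rac, in the LmnB1 libraries, and 43.4, 38.4, 67.4 and 53.4 kb before it in the mCherry libraries. The last gene, KRTAP19-8, lay outside the block in LmnB1_6 replicate 2 alone, where the block ended 29.5 kb short of it. CLDN17 and CLDN8, the nearest genes before the cluster, were covered over 100% in all 8 libraries. TIAM1 had 1.36% and 1.82% of its body covered in the LmnB1_16 libraries and 0% in the other 6, and SOD1, the next gene, had 0% in all 8. The block therefore held the KRTAP cluster, both claudin genes and the end of GRIK1, 36 protein-coding genes in all at its widest.

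Enrichment over input in the proximal cluster stood above the middle of each list and differed in level between libraries. On the authors' log2 scale, the domains over the span, pooled per library, stood at 1.32, 1.09, 1.00 and 0.71 in the LmnB1 libraries, with a mean of 1.03 ± 0.25 (SD, n = 4). The mCherry libraries stood at 0.91, 0.91, 0.97 and 0.74, with a mean of 0.89 ± 0.099 (SD, n = 4). The groups overlapped. Ranked within its own list, the pooled value exceeded 55.1% to 65.1% of domains in the LmnB1 libraries and 56.3% to 80.2% in the mCherry libraries. The block carried 18.6, 18.2, 16.03 and 12.6 H3K9me3 reads per kb with LmnB1 and 13.1, 13.0, 6.89 and 12.0 with mCherry, beside 8.48 to 8.52 input reads per kb. Reads per kb are not scaled to depth, and depth relative to input was 0.880, 1.01, 0.944 and 0.902 in the LmnB1 libraries and 0.819, 0.816, 0.421 and 0.859 in the mCherry libraries. These log2 values are the authors' own.

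With the lists restricted to domains of at least 1 on that scale, 33, 33, 26 and 0 proximal genes stayed covered in the LmnB1 libraries and 0, 0, 1 and 0 in the mCherry libraries. The mean covered percent was then 69.7% with LmnB1 and 0.758% with mCherry. None of the 1363 genes tested passed limma's adjusted threshold under that restriction, and the lowest adjusted p of a KRTAP gene was 0.332. At an unadjusted p below 0.05 stood 26 of the 36 KRTAP genes tested by limma, all higher with LmnB1. So did 118 of all 1363 genes tested (8.66%), and all 118 were likewise higher with LmnB1. Each of the 26 stood at 0% in all 4 mCherry libraries under that limit. They entered the test through their LmnB1 values alone, so their direction was fixed beforehand. Median log2 over the whole list was 1.15, 0.956, 0.886 and 0.702 with LmnB1. With mCherry it was 0.877, 0.868, 0.849 and 0.722, so the limit of 1 cut the lists unequally. In LmnB1_6 replicate 1 the 26 lay in 1 domain at a log2 of 1.02, close to the limit of 1. The 26 lie side by side in the same block and largely in the same domains, and the clone LmnB1_6 was divided between its replicates. The median difference over all genes tested was also positive there, at 25 percentage points.

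**Figure D3:**
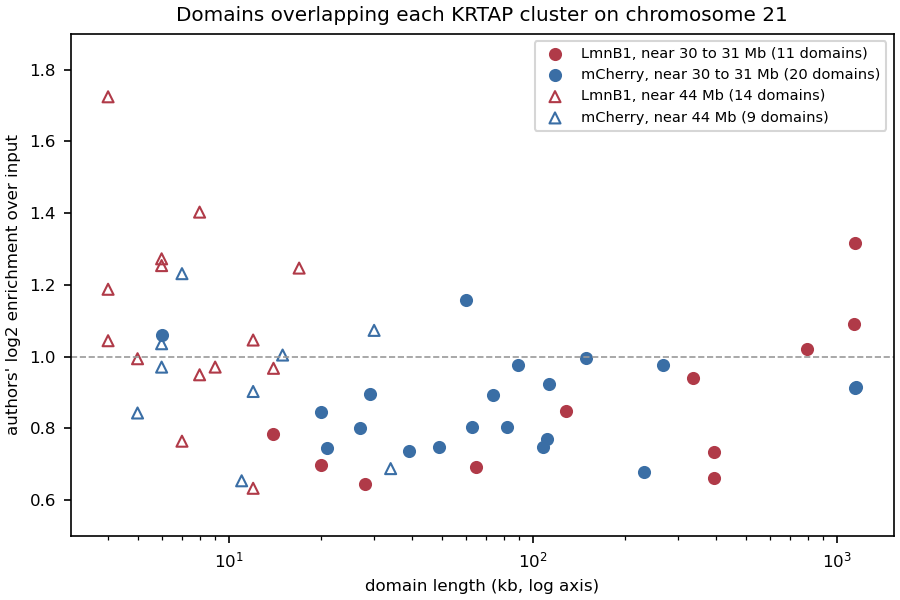
Length in kb (log axis) and the authors' log2 enrichment over input of each listed domain that overlapped the proximal cluster (filled circles) or the distal cluster (open triangles), LmnB1 in red and mCherry in blue; the dashed line is a log2 of 1. Distal domains are short and include the most enriched one (1.72), while the longest proximal domains lie at 1.32 and 1.09 in LmnB1_16 and at 0.91 in mCherry_3.

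In the distal cluster, domains were short and did not join. The 23 domains over its span were 4 to 34 kb long with a median of 8 kb, whereas the 31 over the proximal span were 6 to 1157 kb long with a median of 89 kb. Their log2 enrichment ranged from 0.63 to 1.72 with a median of 1.00, against 0.64 to 1.32 with a median of 0.84 for proximal domains. These medians mix libraries unequally, as the mCherry_4 libraries gave 8 and 10 proximal domains and no distal one. Pooled per library, distal domains stood at 1.16, 1.20, 0.97 and 0.63 with LmnB1 and at 0.98 and 0.88 in mCherry_3. Proximal domains of the same libraries stood at 1.32, 1.09, 1.00 and 0.71, and at 0.91 and 0.91, so neither cluster was higher throughout. Input gave a median of 8.59 reads per kb in distal domains and 8.48 in proximal ones. Listed domains covered 31.4%, 16.97%, 16.97% and 7.54% of the distal span in the LmnB1 libraries and 20.7%, 57.2%, 0% and 0% in the mCherry libraries. No base of the span was listed in more than 6 libraries, and 60.04 kb of it (37.7%) was listed in none. The 3 libraries with the least distal cover were those in whose lists domains under 15 kb were fewest; the part of this in the result was not tested.

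No distal gene had 50% of its body covered in every library, 7 were at 0% in all 8 (KRTAP10-2, KRTAP10-3, KRTAP10-4, KRTAP10-6, KRTAP10-7, KRTAP10-10 and KRTAP10-12) and 9 varied. The 7 make up 43.8% of the cluster, and 79.3% of all protein-coding genes and 76.3% of other chromosome 21 protein-coding genes were at 0% in all 8. Over the 8 libraries distal genes averaged 13.7% cover, beside 5.30% for all protein-coding genes and 6.83% for the others of chromosome 21. Both comparisons leaned on mCherry_3 replicate 2, where 7 of the 16 genes stood at 0% and the mean was 53.0%. In the other libraries 13 to 16 genes stood at 0% and the means were 0% to 18.8%. KRTAP10-5 and KRTAP10-9 were each covered in 5 libraries. KRTAP10-5 stood at 100%, 100%, 100% and 0% in the LmnB1 libraries and at 100%, 100%, 0% and 0% in the mCherry libraries. KRTAP10-9 stood at 100%, 0%, 100% and 100% in the LmnB1 libraries and at 100%, 100%, 0% and 0% in the mCherry libraries. In LmnB1_16 replicate 2, domains ended on either side of KRTAP10-9 (chr21:44617001-44625000 and chr21:44630001-44636000) and left the gene between them. KRTAP10-8 stood at 100% in LmnB1_16 replicate 1 and in mCherry_3 replicate 2 and at 0% in the other 6 libraries.

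The remaining 6 were covered in mCherry_3 replicate 2 alone. KRTAP10-1, the first gene of the cluster, and all 4 KRTAP12 genes (KRTAP12-4, KRTAP12-3, KRTAP12-2 and KRTAP12-1) stood at 100% there, KRTAP10-11 stood at 47.5%, and each stood at 0% in all 4 LmnB1 libraries and in the other 3 mCherry libraries. The 4 KRTAP12 genes lay in 1 domain of 34 kb (chr21:44652001-44686000) with 384 H3K9me3 and 292 input reads and a log2 of 0.69, near the lower limit of the list. Some genes of a family resemble each other in sequence. Promoter windows of KRTAP10 pairs were 57.3% identical at the median, beside 50.1% for pairs with 1 gene from each cluster. KRTAP10-2 and KRTAP10-10, printed above, reached 81.3% and KRTAP12-2 and KRTAP12-1 81.2%, the 2 pairs of 105 distal ones at 80% or more. The sources used here do not say how reads matching several copies were placed, so cover of a gene with such a copy is uncertain. The closest proximal pair, KRTAP13-1 and KRTAP13-4, reached 72.3%.

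**Figure D4:**
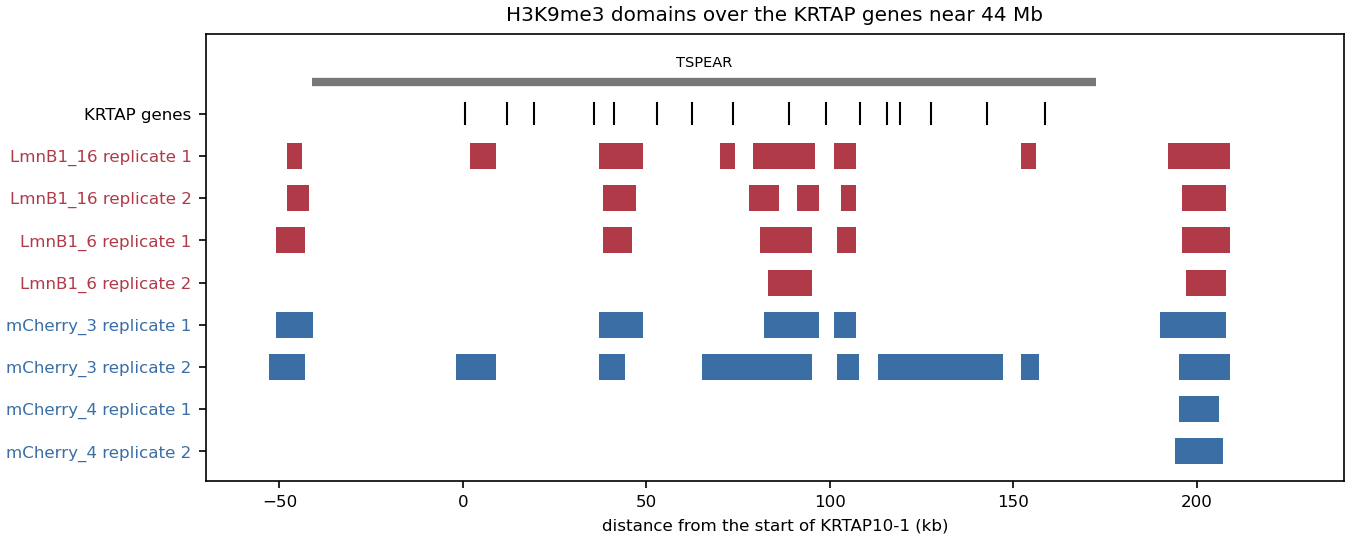
Listed H3K9me3 domains (bars) of the 4 LmnB1 libraries (red, above) and the 4 mCherry libraries (blue, below) against distance from the start of KRTAP10-1 in kb, with the 16 distal KRTAP genes as ticks and TSPEAR in grey. Short domains recur at the same places in up to 6 libraries, both mCherry_4 libraries have none in the cluster, and a domain past the end of TSPEAR is seen in all 8.

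The short distal domains recurred at set places. A stretch around KRTAP10-8 and KRTAP10-9 (chr21:44604001-44636000) was listed in part in 6 libraries, 4 LmnB1 and 2 mCherry, at a log2 of 0.63 to 1.72. A stretch at KRTAP10-5 (chr21:44576001-44588000) was listed in 3 LmnB1 and 2 mCherry libraries at 0.90 to 1.23. Another (chr21:44640001-44647000), between KRTAP10-10 and KRTAP10-11, was listed in 3 LmnB1 and 2 mCherry libraries at 0.97 to 1.27 and reached a gene in mCherry_3 replicate 2 only. Past the end of TSPEAR, a domain within chr21:44729001-44748000 was listed in all 8 libraries at 1.06 to 1.78, so short domains next to the cluster were also found in both mCherry_4 libraries. The median distance from a distal gene to the nearest domain was 2.26, 10.1, 10.1 and 30.8 kb in the LmnB1 libraries and 10.1, 0, 113 and 112 kb in the mCherry libraries. Within 5 kb of a domain lay 10, 6, 5 and 2 of the 16 genes with LmnB1 and 6, 14, 0 and 0 with mCherry.

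Genes after both clusters had little or no cover, whereas the nearest genes before them differed. TSPEAR, which contains the cluster, had 23.4%, 12.6%, 12.6% and 5.62% of its body covered in the LmnB1 libraries and 15.5%, 43.5%, 0% and 0% in the mCherry libraries. TRPM2, which encodes a calcium-permeable channel, had 29.2%, 18.4%, 30.3% and 35.7% covered in the LmnB1 libraries and 34.6%, 19.5%, 0% and 0% in the mCherry libraries. LRRC3 before the cluster, and UBE2G2 and SUMO3 after it, which encode a ubiquitin-conjugating enzyme and a ubiquitin-like modifier, stood at 0% in all 8. For both TSPEAR and TRPM2 the mCherry_4 libraries were the lowest and the groups overlapped.

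Between constructs, none of the KRTAP genes passed the test. Proximal genes averaged 97.0% ± 4.29 with LmnB1 and 97.7% ± 2.91 with mCherry (SD, n = 4 each), and the constructs differed by -0.74 percentage points. Distal genes averaged 10.9% ± 5.98 with LmnB1 and 16.4% ± 25.1 with mCherry, a difference of -5.43 points that was smaller than the spread. The sign of the distal difference rested on mCherry_3 replicate 2: without it the distal mean was 10.9% with LmnB1 and 4.17% with mCherry, a difference of 6.77 points, and without either mCherry_4 library the difference was -10.9 points. Likewise, the proximal difference was 1.28 points without LmnB1_6 replicate 2 and 0.0238 points without either mCherry_3 library. Limma compared the constructs with clone as a random block over 2304 protein-coding genes, those whose covered percent averaged 5 or more. It called 0 of the 42 KRTAP genes tested, at a lowest adjusted p of 0.911 and with 0 of them at an unadjusted p below 0.05. Over all genes tested it called 0.304%, with 0.217% higher and 0.0868% lower, 5 genes and 2 genes. The 7 KRTAP genes at 0% throughout did not enter the test. Of the 42 that did, 26 stood at 100% in all 8 libraries, so they could not be called.

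Means were equal for 35 of the 49 genes, higher with LmnB1 for 5 and lower with LmnB1 for 9. The median difference was 0 points, which is largely fixed by the 26 genes at 100% and the 7 at 0% in all 8 libraries. It cannot be set against the 3.73 points over all genes tested, which leave out the 7. KRTAP19-1 and KRTAP6-2 differed by 25 ± 31.5 points (limma estimate and SE), and KRTAP10-5 and KRTAP10-9 by 25 ± 41.6 points. KRTAP21-2, KRTAP21-1, KRTAP19-8, KRTAP10-1 and the 4 KRTAP12 genes differed by -25 ± 31.5 points. A difference of 25 points is 1 library of 4 more or fewer at 100%, and standard errors exceeded every one of these differences. No KRTAP gene had all 4 LmnB1 libraries above or below all 4 mCherry libraries, which 2.69% and 0.391% of all genes tested had. Each construct rested on 2 clones, and all 4 LmnB1 libraries were deeper relative to input than any of the 4 mCherry libraries, which cannot be told apart from the construct.

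Replicates of mCherry_3 were close in their counts. A chi-square test compared the H3K9me3 counts over 229 domains placed identically in both. It found no difference beyond sampling noise (chi-square per degree of freedom 1.08, p = 0.197). By the same chi-square test the replicate pairs of LmnB1_16 (p = 0.038), LmnB1_6 (p = 0.000368) and mCherry_4 (p = 0.0162) differed. Their chi-squares per degree of freedom were 1.10, 1.73 and 1.67, over 648, 61 and 28 domains. LmnB1_16 was thus nearly as close as mCherry_3, with more domains tested. Among pairs of different clones the lowest was 1.27 over 47 domains, for LmnB1_6 replicate 2 and mCherry_3 replicate 2, of different constructs. The highest was 11.4 over 38 domains, for LmnB1_16 replicate 2 and mCherry_4 replicate 2. Only identically placed domains entered, so the rest of each list was not compared. The lists of the mCherry_3 replicates were not the same, with 2 distal genes covered in replicate 1 and 8 in replicate 2. These replicates were kept as 2 libraries. With both averaged into 1 sample the difference between constructs was 0.0238 points for proximal and 0.0265 points for distal genes.

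Promoters had nearly the same cover as their genes. Each window shares 50 bases with its gene, and domains over the clusters were 4 kb long or more. This likeness was therefore largely fixed beforehand. Of the 30 proximal promoters matched, 26 were touched by a domain in all 8 libraries, and 28 were touched in as many libraries as the gene body. All 15 distal promoters were touched in as many libraries as their genes, and 6 in none. The 4 promoters that held a domain edge, printed above, were cut in mCherry_4 libraries. In replicate 1 the KRTAP6-2 window was covered over 50.7%. In replicate 2 the KRTAP19-3 window was covered over 12.3%, the KRTAP21-3 window over 9% and the KRTAP7-1 window over 97%. Domain edges fall on steps of 1000 bp, longer than a promoter window, so the place of an edge inside a window is not resolved.

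**Figure D5:**
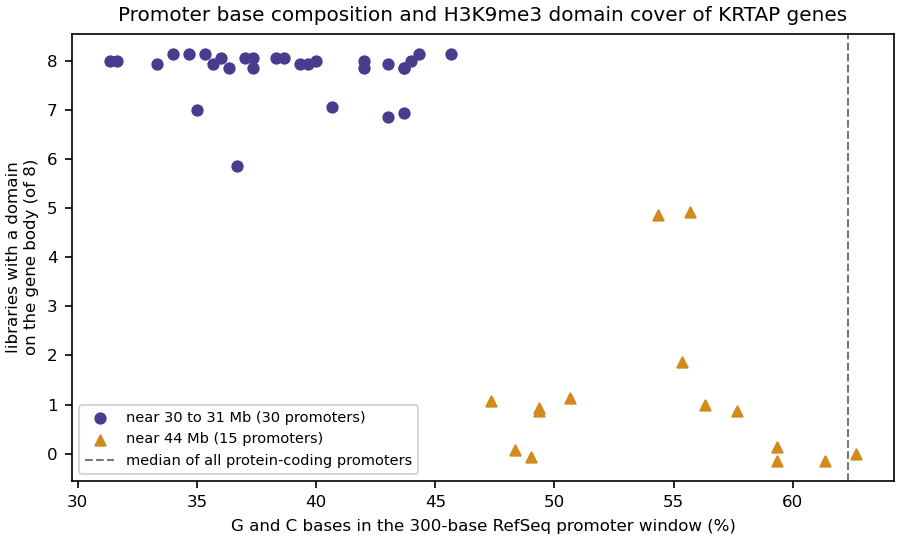
Percent of G and C in the RefSeq promoter window and number of libraries, of 8, with a domain on the gene body, for 30 proximal genes (circles) and 15 distal genes (triangles), points offset slightly in height for visibility. Proximal genes lie at 45.7% or less and at 6 to 8 libraries, distal genes at 47.3% or more and at 0 to 5, and the dashed line is the median of all protein-coding promoters, 62.3%.

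On average, cover of KRTAP genes elsewhere was close to that of all protein-coding genes with LmnB1 and below it with mCherry. Of the 45 KRTAP genes on chromosomes 11 and 17, 0 had 50% of their body covered in every library (1.82% of all protein-coding genes had) and 37 stood at 0% in all 8, which is 82.2% of them beside 79.3% of all protein-coding genes. They averaged 5.66% with LmnB1 and 1.11% with mCherry, beside 5.76% with LmnB1 and 4.85% with mCherry over all protein-coding genes. The LmnB1 average came mostly from LmnB1_16 replicate 1 and LmnB1_6 replicate 1, as for KRTAP2-2 (100%, 0%, 100% and 0%). LmnB1_6 replicate 2 covered none of the 45 genes, so the average does not describe all 4 LmnB1 libraries. On chromosome 17, KRTAP4-6 stood at 100%, 100%, 100% and 0% in the LmnB1 libraries and at 0% in all 4 mCherry libraries (adjusted p = 0.907 by limma). On chromosome 11, KRTAP5-6 was covered in 2 LmnB1 and 2 mCherry libraries. Of the type I hair keratins, the acidic filament partners in the hair cortex, 7 of 11 (63.6%) stood at 0% in all 8 libraries, and so did all 6 type II hair keratins and 11 of 12 further hair shaft and follicle genes. Type I hair keratins averaged 10.1% with LmnB1, mostly through KRT34, and 0% with mCherry. KRT39 and KRT33B had cover in LmnB1_6 replicate 1 alone. Among the type I keratins KRT34 stood at 100%, 100%, 100% and 13.3% in the LmnB1 libraries and at 0% in all 4 mCherry libraries. The difference was 78.3 points (adjusted p = 0.907 by limma). The groups of KRT34 did not overlap, with LmnB1 higher, as was so for 2.69% of all genes tested. Among the follicle genes the exception was MSX2, a homeobox gene active in the hair matrix of the mouse, at 86.5% ± 27.1 with LmnB1 and 73.3% ± 49.0 with mCherry (SD, n = 4 each). Only 9 of these 74 genes had enough cover to be tested by limma, which called 0. The lowest unadjusted p-values by limma were 0.0251 for KRT34 and 0.05 for KRTAP4-6. Both genes stood at 0% in all 4 mCherry libraries, so they entered the test through their LmnB1 values alone.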

How the data were processed

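Each line of the 8 deposited lists is a domain with 2 read counts, from H3K9me3 and from input, a p-value and a q-value, the log2 enrichment over input and a score of 100 times that log2 value, all as computed by the authors before deposit. Domains were called per library against 1 shared input. GRCh38, deepTools, DESeq2, DiffBind 3.0.15 and SICER appear in the submitters' processing notes with no role. An aligner was not given in the sources used here.

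Covered bases of gene bodies were computed from the lists. Positions came from a RefSeq gene table of GRCh38. Counts exist only for a library's own domains, so no count model was run. Limma 3.58.1 (R 4.3.3) compared the constructs for genes averaging 5% cover or more, taking clone as a random effect, and p-values were adjusted over all genes tested by Benjamini and Hochberg's method, at 0.05. The script was tested on simulated data. Cover of a cluster is a description per library, with no test. Python 3.11.15, pandas 2.3.3 and Biopython 1.88 served the rest. The block was taken as the domains over the cluster's span and those joined to them by gaps under 50 kb.

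The KRTAP genes and hair gene lists were chosen with earlier results of these data known. Genes given with all values were those with the largest difference or spread in each cluster and the first and last by position. KRTAP5-6, KRTAP4-6, KRT34, MSX2, SAMSN1, NCAM2 and DSCAM, and the promoters of KRTAP13-1, KRTAP10-9, KRTAP10-2 and KRTAP10-10, were chosen after their values were seen. Protein sequences were not used here. Alternatives were stricter lists, joined domains, wider genes, other thresholds and filters, other blocks and centring, and leaving out each library. The p-values measure the spread between these libraries, which may in part be technical.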

Additional observations from a re-analysis of the deposited data

Results flagged for a closer look

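In each group of 4 libraries, the highest or lowest value was set against the others by its gap relative to the group's range, past Dixon's 95% limit. Of 106 groups examined, 18 had such a library, all for single KRTAP genes. The 106 include groups with the same value in all 4 libraries, which could not be flagged. The share flagged therefore cannot be set against the 1 in 20 that chance would flag. Covered percents are mostly 0% or 100%, so any gene with 1 library apart is picked out.

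Among LmnB1 libraries, LmnB1_6 replicate 2 stood apart at 0% for KRTAP21-2, KRTAP21-1, KRTAP19-8 and KRTAP10-5, and LmnB1_6 replicate 1 at 0% for KRTAP21-3. LmnB1_16 replicate 1 stood apart at 100% for KRTAP10-8 and LmnB1_16 replicate 2 at 0% for KRTAP10-9. Among mCherry libraries, mCherry_3 replicate 2 stood apart at 100% for KRTAP10-1, KRTAP10-8, KRTAP12-4, KRTAP12-3, KRTAP12-2 and KRTAP12-1 and at 47.5% for KRTAP10-11. mCherry_4 replicate 1 stood apart at 0% for KRTAP19-1 and KRTAP6-2, and mCherry_4 replicate 2 at 0% for KRTAP21-3 and 97.6% for KRTAP19-3. Neighbouring genes that share a domain or a gap, such as the 4 KRTAP12 genes, count as 1 event.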

How the results depend on the processing

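No KRTAP gene was called under any of 17 alternatives (lowest adjusted p 0.332 by limma). With domains of at least 1 on the log2 scale, the proximal difference was 68.9 points, the difference between clusters 29.8 points, the proximal genes covered in all 8 libraries 0, and the genes called higher and lower 0 and 0. With the highest-scoring 50% of each list, the proximal difference was -11.4 points (76.5% with LmnB1 and 87.9% with mCherry), 1 proximal gene was covered in all 8 libraries and 1 gene was called lower; LmnB1_6 replicate 2 kept 3 of its proximal genes and mCherry_4 replicate 2 kept 19. The proximal genes covered in all 8 libraries numbered 27 to 30 without 1 library. Leaving out 1 library moved the genes called higher between 5 and 57, 57 without LmnB1_6 replicate 2, and those called lower between 2 and 8, 8 without mCherry_4 replicate 2. Of 254 values of single KRTAP genes, 6 changed sign: KRTAP19-3 at -6.11 with the library mean subtracted, KRTAP21-2, KRTAP21-1 and KRTAP19-8 at 50 and KRTAP10-9 at -25 with the log2 limit of 1, and KRTAP10-11 at 5.23 with 5 kb added. The cause was not tested. Without 1 library, the difference ranged from -1.996 to 1.28 points for proximal and from -10.9 to 6.77 points for distal genes, and that between clusters from 81.8 to 88.9 points.

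With the replicate number as a replicate block, 5 genes were called higher and 2 lower, and 0 KRTAP genes. Deviations from the construct means correlated at -0.607 to 0.265 over 12 pairs of same-numbered libraries. Such deviations sum to 0 within a construct, which pushes pairs of the same construct towards negative values. Differently numbered pairs were not compared, so the check cannot decide whether the numbers pair the samples. A value of 0% means not listed above the authors' limit at that library's depth.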

Other observations

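KRTAP pseudogenes, which are not among the 49 genes, lie in both clusters. Of 8 proximal ones, 7 were covered over 100% in all 8 libraries, and KRTAP21-4P stood at 100%, 100%, 100% and 0% in the LmnB1 libraries and at 100% in all 4 mCherry libraries, as did its neighbours KRTAP21-2 and KRTAP21-1. Both distal ones, KRTAP12-5P and KRTAP10-13P, stood at 0% in all 8.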
